A study of Bos taurus with 6 samples.

Results

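The transcripts followed here were those of VEGFA, a secreted growth factor, of HIF1A, the oxygen-regulated subunit of hypoxia-inducible factor 1, and of 8 glycolysis enzymes: HK2, PFKP, PGK1, GAPDH, ENO1, PKM, LDHA and LDHB. They were chosen by gene name, and 9 of these 10 genes had a row among the 9537 genes of the deposited table. HK2 had none and was not analysed here. The samples were blastocysts of cattle (Bos taurus), made in vitro in the culture medium SOFaaci, the stage at which the embryo has an outer trophectoderm, an inner cell mass and a fluid-filled cavity. There were 2 groups of 3 RNA-seq libraries each: embryos of high and embryos of low cryosurvival, which is the rate of survival after vitrification, a rapid freezing without ice crystals. The labels do not place RNA collection before or after vitrification. Titles of the high group carry an unexplained code V and those of the low group NV, and whatever these mark cannot be told apart from cryosurvival. Separate cultures or embryo numbers are not stated for the libraries, so each p-value reflects the spread among these samples alone and that spread may be technical.

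In cells with ample oxygen, prolyl hydroxylases of the EGLN family mark the HIF1A protein for destruction through VHL. When oxygen is scarce the protein persists, pairs with ARNT and switches on genes for glucose uptake, glycolysis, lactate production and vessel growth, VEGFA among them. This control acts mainly on the protein, so the HIF1A transcript is not a measure of its activity. Mammalian embryos take up more glucose and form lactate as they reach the blastocyst stage. VEGFA is best known for its action on blood vessels, which a blastocyst does not yet have.

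Values are CPM, read counts scaled to a common library size. The libraries held 14651477 to 19467022 reads in the table, the fewest in low cryosurvival library 2. The CPM of that library summed to 1100411, against 960647 to 995602 in the other libraries. The groups were compared with limma on log2(CPM + 1) across all genes, with Benjamini-Hochberg adjustment, and differences are low minus high cryosurvival. At an adjusted p of 0.05 limma called 0 genes, 0% of those tested, with 1142 genes (12%) at an unadjusted p below 0.05, and voom on recovered reads also called 0. The authors' deposited table has 114 genes (1.2%) with an adjusted p below 0.05. Low cryosurvival library 2 stood apart from the rest: it was the highest or the lowest of the 6 libraries for 69.9% of all genes, and without it limma called 1300 genes (13.6%). Results whose limma call rests on it are therefore given with and without it. The lineage genes of a blastocyst were present, with 9 of 11 trophectoderm, 7 of 8 inner cell mass and epiblast, and 7 of 8 hypoblast markers measured. Of markers of cells that could accompany embryos, 4 of 8 of cumulus and granulosa cells had a row (summed level 42.6 to 48.4 CPM in high and 40.2 to 45.6 CPM in low), 3 of 5 of endothelium and 0 of 3 of blood. Of the 4 cumulus and granulosa markers, 3 had a negative difference. FSHR was lower without overlap (10.6% of all genes), at 8.63, 8.76 and 9.04 CPM in high and 8.14, 7.06 and 7.33 CPM in low libraries 1, 2 and 3. INHBA had a limma adjusted p of 0.831, and 0.0289 without low library 2.

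VEGFA and PFKP were the members in which the groups separated. VEGFA, the ligand, was lower in low cryosurvival embryos, and PFKP, the platelet form of the phosphofructokinase that commits glucose to glycolysis, was higher. HIF1A and the other 6 measured enzymes had overlapping groups. A count of 2 of 9 members without overlap is close to the share over all genes, 21%. At an unadjusted p below 0.05 limma had VEGFA among the 5.7% of all genes that were lower and PFKP among the 6.27% that were higher.

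**Figure D1:**
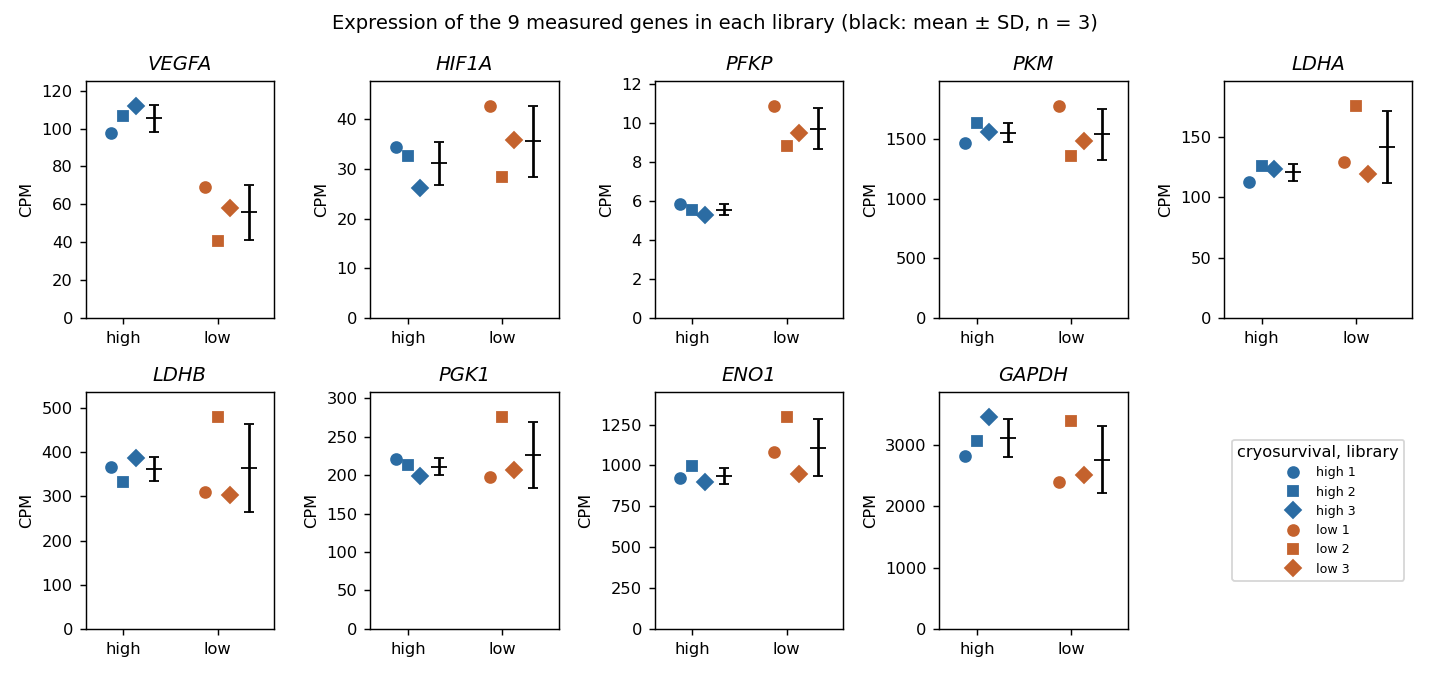
CPM (y axis, from 0) of the 9 measured genes in the 3 high and 3 low cryosurvival libraries, 1 point per library, with the mean ± SD in black. The groups are apart for VEGFA and PFKP, and low library 2 (orange square) is the highest of the 6 for LDHA, LDHB, PGK1 and ENO1.

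VEGFA transcripts were at 97.9, 106 and 112 CPM in high cryosurvival libraries 1, 2 and 3. It was at 69.3, 40.5 and 58.1 CPM in low cryosurvival libraries 1, 2 and 3. Every low library lay below every high one, and low library 2 was the lowest. The means were 105 ± 6.96 and 55.9 ± 14.5 CPM (SD, n = 3 each), so VEGFA was 46.9% lower in low cryosurvival embryos. The log2 difference was -0.93 (SE 0.21, 95% confidence interval -1.42 to -0.44), with a limma adjusted p of 0.176. Without low library 2 the difference was smaller, -0.72, and the limma adjusted p was 0.0203. In the authors' deposited table VEGFA was called, with a log2 fold of low over high of -0.911 and an adjusted p of 0.013. There, 27 genes (0.283%) were called lower in low cryosurvival embryos.

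Between 539 and 2030 reads stood behind each VEGFA value, which gives a counting error of 2.22% to 4.31% of the value. The spread between libraries was larger, with a coefficient of variation of 6.604% in the high and 26.0% in the low group. Counting error covers only the reads, and splice forms of VEGFA were not separated. In whole embryos, fewer cells of a type and less RNA per cell cannot be told apart. Trophectoderm markers lay on the same side as VEGFA: all 9 measured had a negative log2 difference, from -0.67 for TFAP2A to -0.00074 for PAG2, 4 of them with groups that did not overlap (10.6% of all genes), and the median was -0.25. Their summed level was 31718 to 35010.1 CPM in high and 27083 to 37142 CPM in low cryosurvival libraries. Most of it came from KRT8 and KRT18, with means of 18200 and 12191 CPM over the 6 libraries. DAB2, an endocytic adaptor of the trophectoderm list, was at 445, 488 and 509 CPM in high and 398, 308 and 349 CPM in low libraries 1, 2 and 3. Of this list it had the highest Pearson correlation with VEGFA over the 6 libraries (log2(CPM + 1), r = 0.989). The r was 0.945 for TFAP2A, 0.79 for GATA2, 0.72 for TFAP2C and 0.70 for GATA3. For CDX2 and KRT18 it was 0.39 and 0.35, and for KRT8 and PAG2 it was negative, -0.27 and -0.20. High values were not particular to this list. The r was 0.977 for FSHR of the cumulus and granulosa list, 0.927 for NANOG of the epiblast list and 0.854 for HNF4A of the hypoblast list. Other members of the epiblast and hypoblast lists had a negative r, such as SOX2 (-0.55) and GATA4 (-0.70). KRT8 was highest of the 6 in low library 2, where VEGFA was lowest. Without that library limma called 1 of the 9 trophectoderm markers lower (5.48% of all genes), GATA2 (adjusted p = 0.0333, and 0.258 with all libraries). The inner cell mass and epiblast list had 3 of 7 measured members with a positive difference and a median of -0.061, which was 0.13 without low library 2. This list summed to 1063 to 1192.3 CPM in high and 1004.6 to 1191.8 CPM in low libraries, most of it from POU5F1 (mean 739 CPM). Its member NANOG, a pluripotency factor, was lower without overlap, at 47.3, 31.1 and 37.6 CPM in high and 22.1, 12.2 and 14.3 CPM in low libraries 1, 2 and 3 (limma adjusted p = 0.164, and 0.0345 without low library 2). LIN28A of the same list had overlapping groups, at 30.5, 31.0 and 20.7 CPM in high and 56.2, 15.3 and 51.0 CPM in low. Its log2 difference was 0.38 (limma adjusted p = 0.861), and 0.96 without low library 2 (0.0277). Without that library limma called 1 of the 7 higher (8.15% of all genes) and 2 lower (5.48%). Hypoblast markers had a median of 0.47 with 4 of 7 positive, and GATA4 and BMP2 were higher (10.4% of all genes) and HNF4A lower without overlap. The hypoblast markers summed to 2268.6 to 2960.3 CPM in high and 1518 to 3029.9 CPM in low libraries, most of it from FN1 (mean 2126 CPM). Without low library 2 limma called 2 of the 7 hypoblast markers higher (8.15% of all genes) and 0 lower. These were BMP2 (adjusted p = 0.0228, and 0.215 with all libraries) and COL4A1 (0.0203, and 0.624 with all libraries). The groups of COL4A1 overlapped. The part of the lineage markers in the VEGFA difference was not tested.

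The rest of the VEGF system was sparsely represented, with 4 of 11 listed ligands and receptors in the table. KDR, the main signalling receptor of VEGFA on endothelial cells, had no row and was not analysed here. FLT1, a high-affinity receptor of VEGFA, was at 2.55 ± 0.569 CPM (high) and 2.48 ± 1.23 CPM (low), with overlapping groups. The related ligand VEGFB was at 39.2, 43.4 and 37.9 CPM in high and 31.6, 35.3 and 33.6 CPM in low libraries 1, 2 and 3. Its groups did not overlap either, with low below high, but the difference was small, -0.25 (SE 0.12, limma adjusted p = 0.483).

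NRP2, a co-receptor of semaphorins and VEGF ligands, depended on low library 2. It was at 4.71, 5.77 and 3.94 CPM in high and at 14.4, 1.73 and 14.6 CPM in low libraries 1, 2 and 3. Low libraries 1 and 3 were thus far above every high one, and low library 2 was below all of them. In low library 2, 1 read was worth 0.0751 CPM, so its NRP2 value rests on few reads. The log2 difference of NRP2 was 0.59 with this library (limma adjusted p = 0.835) and 1.43 without it (0.0113).

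Of 5 endothelial markers 3 were measured, PECAM1, VWF and TEK. CDH5 and TIE1, which define that cell type, had no row. PECAM1, an adhesion molecule of endothelium and other cells, was at 83.5, 93.0 and 69.3 CPM in high and 134, 109 and 129 CPM in low libraries 1, 2 and 3. All 3 low libraries exceeded the high ones for PECAM1 (log2 difference 0.59, limma adjusted p = 0.224, and 0.0306 without low library 2). VWF and TEK had overlapping groups (limma adjusted p = 0.337 and 0.769, with 0.0440 for VWF without low library 2). The summed level of the 3 markers was 76.8 to 102 CPM in high and 121 to 154 CPM in low libraries.

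By Pearson correlation of log2(CPM + 1) over the 6 libraries, the genes whose pattern was most like that of VEGFA were SH3D21 (r = 0.996), TPD52 (0.995), PRPS2 (0.994), ACTR1B (0.994) and NKD1 (0.992). This is a description: the libraries share their scaling, and 387 genes (4.06%) had an r above 0.9. SH3D21 had means of 429 CPM (high) and 274 CPM (low). TPD52 varied over a smaller range, with means of 186 CPM (high) and 165 CPM (low).

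HIF1A transcripts did not separate the groups. They were at 34.5, 32.6 and 26.2 CPM in high and at 42.6, 28.3 and 35.8 CPM in low libraries 1, 2 and 3. Low library 1 was the highest and high library 3 the lowest of the 6, with low library 2 inside the high range. The log2 difference of HIF1A was 0.18 (SE 0.19, 95% confidence interval -0.27 to 0.63), with a limma adjusted p of 0.827, and 0.33 without low library 2 (0.156). The interval leaves room for a difference in either direction.

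The difference between VEGFA and HIF1A was itself compared, as the ratio of their CPM within each library, which does not depend on library scaling. The ratio was 2.84, 3.26 and 4.26 in high and 1.63, 1.43 and 1.62 in low libraries 1, 2 and 3. The 3 low ratios were close together and below every high one. The log2 ratio was 1.77 ± 0.297 in high and 0.638 ± 0.106 in low cryosurvival embryos (SD, n = 3 each). The difference of -1.13 had an exact two-sided permutation p of 0.1, the smallest that 3 libraries against 3 can give. Adjusted over the 3 ratios compared it was 0.15. These include PFKP to PFKL, chosen after its values were seen, and without that ratio the adjusted p would be larger.

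**Figure D2:**
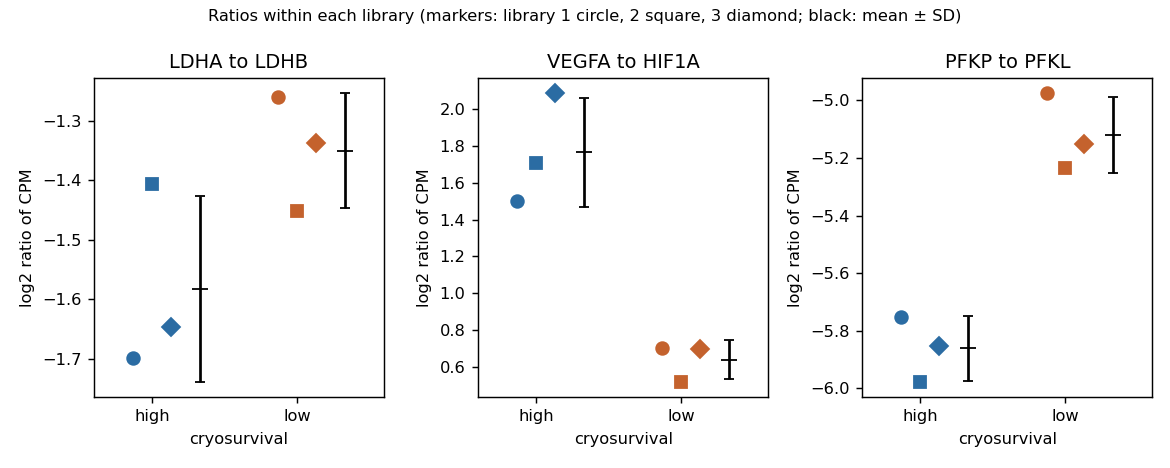
Log2 ratio of CPM within each library (y axis) for LDHA to LDHB, VEGFA to HIF1A and PFKP to PFKL in high and low cryosurvival, 1 point per library and mean ± SD in black. The groups are apart for VEGFA to HIF1A and PFKP to PFKL and overlap for LDHA to LDHB; the y axes do not start at 0.

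Among HIF subunits and oxygen-sensing genes, 16 of 18 were measured, 6 with a positive and 10 with a negative difference and a median of -0.047, against 0.00023 over all genes. By limma 0 of them passed, and 2 of the 16 had groups without overlap, both higher in low (10.4% of all genes). These were EGLN3 and CUL2. EGLN3, an oxygen-sensing hydroxylase whose own gene is a known hypoxia target, was at 18.7, 20.5 and 19.1 CPM in high and 33.2, 29.1 and 29.4 CPM in low libraries 1, 2 and 3. All 3 low libraries were well above the narrow high range. The log2 difference of EGLN3 was 0.63 (SE 0.12), with a limma adjusted p of 0.154, and 0.0185 without low library 2.

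CUL2, the cullin of the VHL ubiquitin ligase, was at 31.4 ± 1.02 against 37.5 ± 2.26 CPM (high against low, limma adjusted p = 0.473). EGLN1, the main hydroxylase of HIF1A, was at 91.3 ± 2.76 CPM in the high and 79.1 ± 8.82 CPM in the low group (limma adjusted p = 0.622). HIF1AN, the asparagine hydroxylase that limits HIF activity, had a difference of 0.25 (limma adjusted p = 0.746). TCEB2 and RBX1, small subunits of the VHL ubiquitin ligase, had their highest value in low library 2, at 376 and 296 CPM, against at most 249 and 201 CPM in every other library.

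Hypoxia targets outside glycolysis went both ways. Of 34 listed genes 26 were measured, 15 with a positive and 11 with a negative difference, with a median of 0.090. Groups did not overlap for 6 genes higher and 4 genes lower in low cryosurvival embryos, 38.5% of the measured list against 21% of all genes. By limma 0 passed with all libraries, and without low library 2 it called 5 of 26 higher (8.15% of all genes) and 4 of 26 lower (5.48%). The list was chosen with earlier results of these data known, so these shares are not independent of the values. It holds VEGFA itself and, with EGLN3, a gene of the sensing list.

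**Figure D3:**
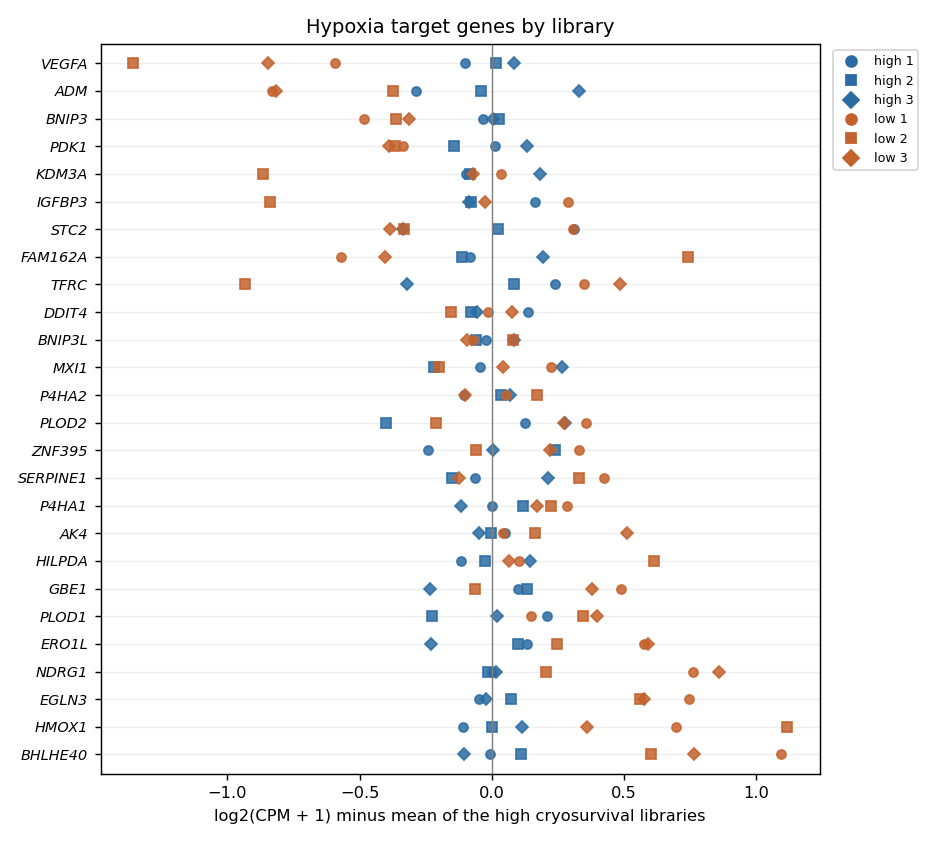
Log2(CPM + 1) of the 26 measured hypoxia target genes in each library minus the mean of the high cryosurvival libraries (x axis), ordered by group difference, with high libraries in blue and low libraries in orange. Low libraries lie to the left of all high ones for VEGFA, ADM, BNIP3 and PDK1 and to the right for BHLHE40, HMOX1, EGLN3, NDRG1, ERO1L and P4HA1.

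BHLHE40, a transcriptional repressor, was the target furthest in the direction opposite to VEGFA. It was at 19.7, 21.5 and 18.4 CPM in high and 43.4, 30.6 and 34.4 CPM in low libraries 1, 2 and 3. Each low library was above each high one. The log2 difference of BHLHE40 was 0.82 (SE 0.16), with a limma adjusted p of 0.164, and 0.0170 without low library 2. The authors' deposited table called BHLHE40 at an adjusted p of 0.024, among 87 genes (0.912%) called higher there. HMOX1, the haem-degrading enzyme, which also answers oxidative stress, was at 35.4, 38.3 and 41.5 CPM in high and 62.7, 84.2 and 49.5 CPM in low libraries 1, 2 and 3. Low library 2 held its highest value, and the difference was 0.72 with that library (limma adjusted p = 0.245) and 0.53 without it (0.0447).

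The remaining targets whose groups did not overlap are named after their values were seen, except PDK1. NDRG1, a stress-induced gene, had means of 33.4 ± 0.371 CPM in the high and 52.4 ± 12.1 CPM in the low group (limma adjusted p = 0.277, and 0.0114 without low library 2). ERO1L, which encodes an oxidase of the endoplasmic reticulum that helps form disulfide bonds, had 38.9 ± 5.30 and 54.2 ± 7.11 CPM (limma adjusted p = 0.327, and 0.0366 without that library). P4HA1, a subunit of the enzyme that hydroxylates collagen, had the smallest difference of this direction, 0.23. On the side of VEGFA stood ADM, the vasoactive peptide adrenomedullin, with 21.6 ± 4.93 CPM in high and 13.1 ± 2.65 CPM in low (limma adjusted p = 0.277, and 0.0348 without low library 2). BNIP3, a mitochondrial protein of mitophagy, was at 69.4 ± 1.52 against 52.8 ± 3.22 CPM (limma adjusted p = 0.258, and 0.0404 without low library 2). KDM3A and AK4, whose means were among the highest of the list, had overlapping groups (limma adjusted p = 0.756 and 0.647).

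Among the glycolysis members, PFKP was the one whose groups did not overlap. It was at 5.83, 5.56 and 5.27 CPM in high and at 10.8, 8.79 and 9.48 CPM in low libraries 1, 2 and 3. The low libraries all exceeded the high ones, and low library 2 was the one nearest to them. The means were 5.55 ± 0.279 and 9.70 ± 1.04 CPM (SD, n = 3 each), a ratio of 1.75. The log2 difference was 0.70 (SE 0.13, 95% confidence interval 0.41 to 1.003), with a limma adjusted p of 0.143, and 0.77 without low library 2 (0.0158). In the authors' deposited table the adjusted p of PFKP was 0.133. Each value rested on 95 to 217 reads, a counting error of 6.79% to 10.3%, and the spread between libraries was 5.03% in the high and 10.7% in the low group.

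The other phosphofructokinase genes did not follow PFKP. PFKL, the liver form, was at 314, 351 and 304 CPM in high and 340.4, 331 and 337 CPM in low libraries 1, 2 and 3, with overlapping groups (log2 difference 0.059, limma adjusted p = 0.925). PFKM, the muscle form, was at 4.76, 3.15 and 4.55 CPM in high and 4.14, 2.03 and 3.09 CPM in low. The log2 ratio of PFKP to PFKL within a library, a comparison chosen after the values were seen, was -5.86 ± 0.113 in high and -5.12 ± 0.133 in low cryosurvival embryos. All 3 low libraries were above the high ones (difference 0.74, exact two-sided permutation p = 0.1, the smallest possible, and 0.15 adjusted over 3 ratios). Neither p-value accounts for that choice.

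PGK1, GAPDH and ENO1 act in the later steps of the pathway, where ATP and NADH are made. GAPDH, which oxidises glyceraldehyde phosphate, was at 2826, 3056 and 3452 CPM in high and 2397, 3382 and 2502 CPM in low libraries 1, 2 and 3. Low libraries 1 and 3 were below every high library, and low library 2 lay near the top. Its log2 difference was -0.19 with that library (SE 0.17, limma adjusted p = 0.788) and -0.34 without it (0.0820). A gene often used for normalisation thus varied from 2397 to 3452 CPM over these 6 libraries.

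PGK1, which makes the first ATP of the pathway, was at 221, 214 and 199 CPM in high and 197, 275 and 206 CPM in low libraries 1, 2 and 3. Without low library 2 its difference changed sign, from 0.085 to -0.064 (limma adjusted p = 0.921 and 0.650). ENO1, the broadly expressed enolase, was at 920.0, 993 and 896 CPM in high and 1082, 1295 and 947 CPM in low. Low library 3 lay inside the high range of ENO1, and the difference was 0.23 (SE 0.15, limma adjusted p = 0.649) and 0.11 without low library 2. Both genes reached their maximum in low library 2. GAPDH and other glycolysis genes have processed pseudogenes that may share their reads, and how such reads were counted is not stated in the labels.

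PKM, the pyruvate kinase that forms pyruvate, had nearly equal means. It was at 1465, 1631 and 1559.7 CPM in high and 1769.8, 1358 and 1479 CPM in low libraries 1, 2 and 3. The low libraries included both the highest and the lowest value. The log2 difference was -0.022 (SE 0.14, 95% confidence interval -0.36 to 0.31; limma adjusted p = 0.983) and 0.062 without low library 2. The PKM splice forms were not separated here. PKLR, the other pyruvate kinase gene, was at 9.58, 10.9 and 12.1 CPM in high and 7.24, 9.84 and 6.91 CPM in low libraries 1, 2 and 3, with overlapping groups. Its log2 difference was -0.41 (limma adjusted p = 0.403), and -0.55 without low library 2 (0.0330).

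The lactate dehydrogenase subunits, which interconvert pyruvate and lactate, were also unseparated. LDHA, the subunit that favours lactate formation, was at 113, 125 and 124 CPM in high and 129.5, 175 and 119.6 CPM in low libraries 1, 2 and 3. LDHB was at 366, 332 and 387 CPM in high and 310.0, 479 and 302 CPM in low. For both, low library 2 was the highest of the 6. Without it, LDHB in the low group lay below every high library, with a difference of -0.24 instead of -0.023 (limma adjusted p = 0.140 and 0.988), and the difference of LDHA was 0.046 instead of 0.21 (0.763 and 0.746).

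The balance of the subunits was compared within each library. The ratio of LDHA to LDHB was 0.308, 0.378 and 0.320 in high and 0.418, 0.366 and 0.396 in low libraries 1, 2 and 3. The groups overlapped through high library 2 and low library 2, which differed by little. The log2 ratio was -1.58 ± 0.156 in high and -1.35 ± 0.0969 in low cryosurvival embryos (SD, n = 3 each). The difference of 0.23 had an exact two-sided permutation p of 0.2, also after adjustment over the 3 ratios.

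**Figure D4:**
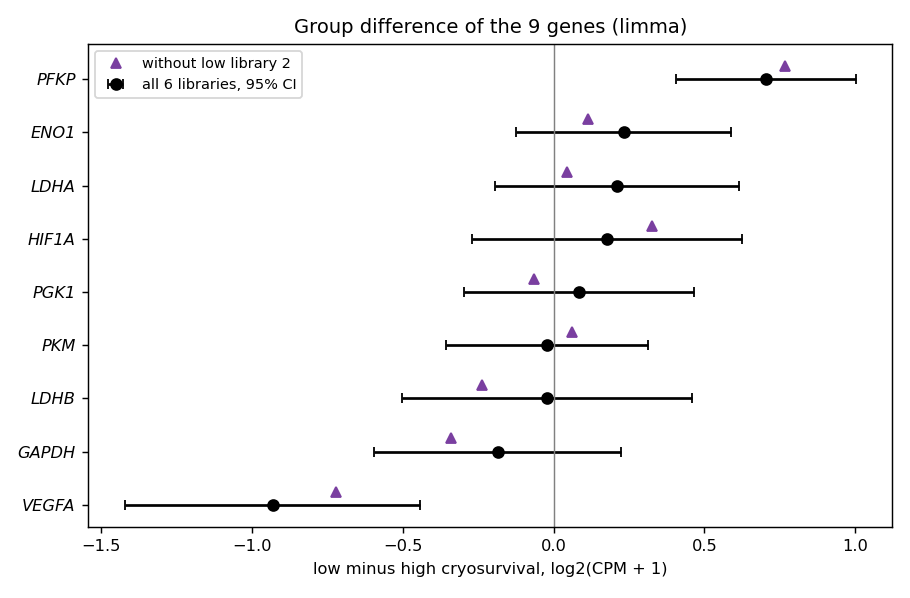
Low minus high cryosurvival difference of log2(CPM + 1) for the 9 genes (x axis), with all 6 libraries and its 95% confidence interval in black and without low library 2 as purple triangles. The unadjusted intervals of VEGFA and PFKP lie on one side of 0 and those of the other 7 genes cross it.

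Low library 2 was the highest of the 6 libraries for 4 and the lowest for 2 of the 9 members, 66.7% against 69.9% of all genes. Without it the groups did not overlap for 5 members, but neither did they for 55.1% of all genes. Those 5 were VEGFA, HIF1A, PFKP, LDHB and GAPDH. In this comparison limma called 2 members, VEGFA lower (5.48% of all genes were called lower) and PFKP higher (8.15% called higher).

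Over the whole glycolysis list, 31 of 35 enzymes were measured, 10 with a positive and 21 with a negative difference and a median of -0.023. By limma 0 passed with all libraries. At an unadjusted p below 0.05 it had 3 higher (6.27% of all genes) and 2 lower (5.7%). Without low library 2 limma called 2 of the 31 higher (8.15% of all genes) and 2 lower (5.48%). Groups did not overlap for 3 genes higher and 3 lower in low cryosurvival embryos, 19.4% against 21% of all genes. The share of glycolysis enzymes that separated the groups was thus close to that of all genes.

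**Figure D5:**
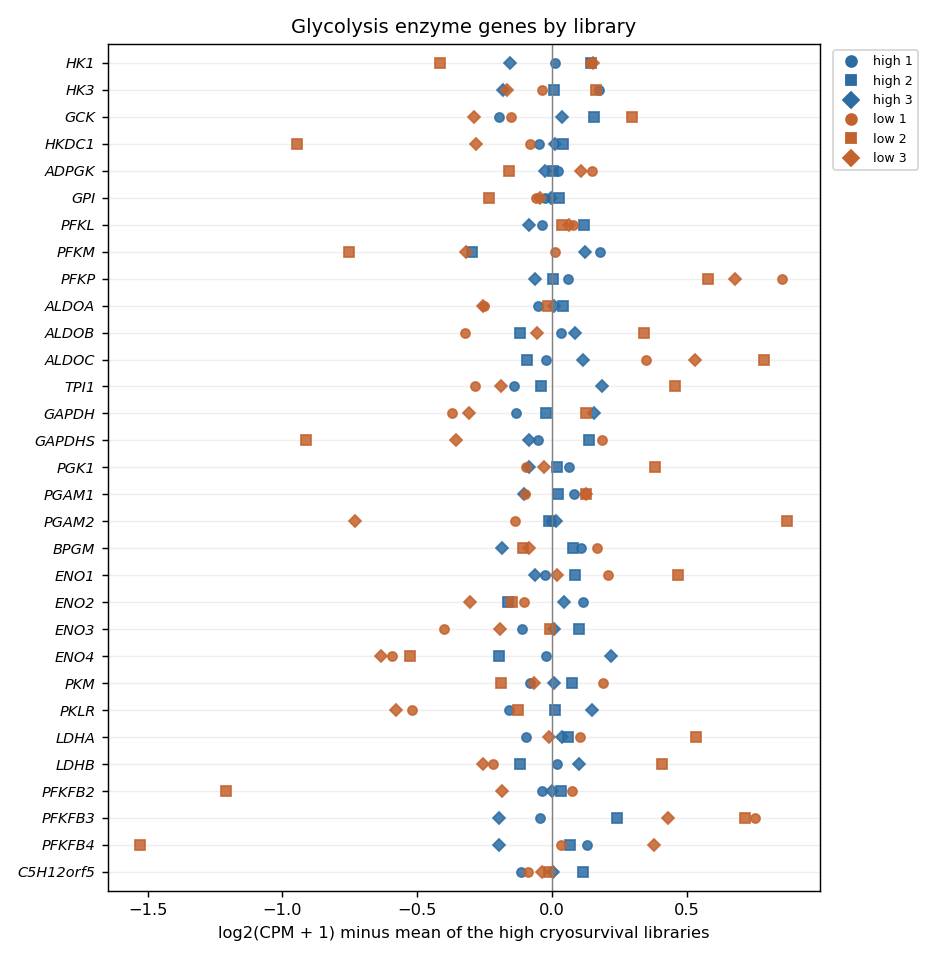
Log2(CPM + 1) of the 31 measured glycolysis genes in each library minus the mean of the high cryosurvival libraries (x axis), with high libraries in blue and low libraries in orange. PFKP, ALDOC and PFKFB3 have all low libraries to the right of the high ones, ENO4, HKDC1 and GPI to the left, and low library 2 is far to the left for PFKFB2 and PFKFB4.

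PFKFB3, which makes the fructose bisphosphate that activates phosphofructokinase, was higher in low cryosurvival embryos together with PFKP. It was at 41.7, 51.1 and 37.4 CPM in high and 73.2, 71.4 and 58.4 CPM in low libraries 1, 2 and 3. The groups of PFKFB3 were apart, with a log2 difference of 0.63 (SE 0.17), a limma adjusted p of 0.217 and 0.0552 without low library 2. ALDOC, an aldolase best known from brain, was at 20.4, 19.4 and 22.6 CPM in high and 26.7, 36.6 and 30.5 CPM in low. Its difference was 0.56 (limma adjusted p = 0.235) and 0.44 without low library 2 (0.0442). ENO4, an enolase-like gene known from sperm, was lower, at 3.18 ± 0.608 against 1.77 ± 0.103 CPM, on as few as 25 reads per library (limma adjusted p = 0.198, and 0.0352 without low library 2).

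Among hexokinases, which trap glucose in the cell and to which the unmeasured HK2 belongs, 0 genes were called by limma. HK1 was at 166, 182 and 148 CPM in high and 182, 123.5 and 183 CPM in low libraries 1, 2 and 3, and low library 2 was below all others. HKDC1, named after its values were seen, was at 165, 175 and 172 CPM in high and 161, 88.1 and 140.2 CPM in low. Its groups were apart, but the log2 difference of -0.44 became -0.18 without low library 2 (limma adjusted p = 0.543 and 0.232).

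Carriers of glucose and lactate showed small differences. Of 17 listed genes 12 were measured, 6 in each direction, with a median of -0.033 and 0 past limma with or without low library 2. SLC2A1 and SLC2A3, glucose transporters of the plasma membrane, were at 562 ± 31.4 against 512 ± 18.8 CPM and 1350.3 ± 131 against 1458 ± 292 CPM (high against low). SLC2A5, a fructose transporter, was at 913 ± 42.9 against 770.0 ± 148 CPM, and SLC16A7, a carrier of pyruvate and lactate, at 33.4 ± 3.58 against 26.7 ± 4.13 CPM. These 2 of 12 carriers had groups without overlap, both lower in low (10.6% of all genes). SLC16A3, a lactate exporter, was at 2.80 ± 0.302 against 2.12 ± 0.503 CPM, on as few as 30 reads per library. BSG, the chaperone of the lactate carriers, was at 1574 ± 90.7 against 1669 ± 197 CPM.

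Downstream of glycolysis, genes of pyruvate oxidation and the citrate cycle had a negative difference in 25 of 30 measured members, with a median of -0.12. Groups did not overlap for 5 genes lower and 1 higher, 6 of 30 against 21% of all genes, and by limma 0 passed with all libraries. Without low library 2 limma called 3 of the 30 lower (5.48% of all genes) and 0 higher (8.15%). PDK1, a kinase that shuts pyruvate out of the citrate cycle and a hypoxia target, was at 49.7, 44.6 and 54.1 CPM in high and 38.8, 38.0 and 37.4 CPM in low libraries 1, 2 and 3. The low libraries of PDK1 were close together and below all high ones (log2 difference -0.36, limma adjusted p = 0.315, and 0.0670 without low library 2). PDHB, a subunit of the pyruvate dehydrogenase that this kinase inhibits, was likewise lower, at 509 ± 12.7 against 409.7 ± 24.96 CPM (limma adjusted p = 0.345, and 0.0424 without low library 2). PDK3, a kinase of the same family as PDK1, went the other way. Its log2 fold of low over high in the authors' deposited table was 0.448, with an adjusted p of 0.655. For CS, MPC1 and PDHX that fold was -0.157, -0.1 and -0.208.

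The pentose phosphate pathway, which draws on the same glucose for NADPH and ribose, had 8 of 9 genes measured, 7 with a positive difference and a median of 0.031. The median was -0.0021 without low library 2, which was the highest of the 6 libraries for 4 of the 8 genes. By limma 0 passed. RPE, an epimerase of its non-oxidative branch, was the exception in sign, at 78.8, 75.5 and 76.7 CPM in high and 56.6, 57.5 and 63.0 CPM in low libraries 1, 2 and 3. Its groups were apart (log2 difference -0.38, limma adjusted p = 0.262, and 0.0471 without low library 2). TALDO1, which acts in the same branch, reached 1001 CPM in low library 2 and lay between 576 and 691 CPM in every other library.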

How the data were processed

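RNA was taken from blastocysts in 2 groups of 3 libraries, grouped by the cryosurvival in their labels. RNA integrity numbers were 7.7 or more, per the labels' protocols. The submitters' processing notes list DESeq 1.12.1, HTSeq 0.5.4p2, TopHat2 2.0.8, Bowtie2 2.1.0, SAMtools 0.1.18 and Cufflinks 2.1.1 with no role stated. Neither genome build nor annotation, strand use or low-value filter is stated there, so no coordinates or sequences are reported and overlapping genes were not separated. For each gene the deposited table holds CPM of a library size scaled by the authors, beside their log2 fold, p-value and its adjusted form. The sign of the fold was turned to low over high. CPM was worked out from the values: below 1000 CPM, 100% fell within 0.05 read of a multiple of what 1 read is worth. TMM factors computed from these reads gave the same scaling up to a constant. The lowest mean in the table was 0.737 CPM. 

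Limma 3.58.1 in R 4.3.3 was fitted on log2(CPM + 1) with no covariate, and checked on simulated data. With a pseudocount of 1 it understates the change of low genes. Lists are described by counts and medians. The rule for named genes was every member, the 2 highest and up to 4 smallest-p genes of each of 7 lists, and the 5 genes most like VEGFA. TKT, TKTL1 and PGLS of the pentose phosphate list met this rule but are not described. Lineage and endothelial markers, PFKL, PFKM, HK1, HKDC1, NDRG1, ERO1L, P4HA1, ADM and BNIP3 fall outside this rule and were named after their values were seen. The members and lists were chosen with earlier results of these data known. Older symbols were matched through the gene table of ARS-UCD2.0. Alternatives were other pseudocounts, a filter on the mean, other scalings, voom, a replicate block and leaving out each library.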

Additional observations from a re-analysis of the deposited data

How the results depend on the processing

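The count of genes called by limma was 0 with the settings reported, 10 with a pseudocount of 0.5, 7 with 0.1 and 7 among genes with a mean of at least 5 CPM; none of these was a member. With a library left out it ranged from 0 to 1300, the latter without low cryosurvival library 2, and the count of members called from 0 to 2. The count of members whose groups did not overlap ranged from 2 to 5. Leaving out a library turned the sign of PKM (-0.13 to 0.062), LDHB (-0.24 to 0.094) and PGK1 (-0.064 to 0.18), and moved VEGFA from -1.10 to -0.72 and PFKP from 0.63 to 0.77. The medians ranged from -0.064 to 7.59e-05 for glycolysis enzymes and from -0.096 to 0.075 for oxygen-sensing genes. The cause was not tested. The ratio of VEGFA to HIF1A stayed between -1.26 and -0.97, of PFKP to PFKL between 0.67 and 0.80 and of LDHA to LDHB between 0.18 and 0.32.

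Deviations from the group mean correlated at 0.12, -0.26 and -0.31 between same-numbered libraries, and from -0.36 to 0.37 between differently numbered ones. With 3 libraries per group such deviations cancel out within a group. These correlations are therefore tied to one another. Those of same-numbered libraries lay within the range of the others. Whether same-numbered libraries shared a batch or culture was not tested. With the number as a replicate block limma called 0 genes, and the adjusted p was 0.502 for VEGFA and 0.495 for PFKP; sign flips over pairs gave exact p values of 0.25 for VEGFA to HIF1A and PFKP to PFKL, the smallest possible, and 0.5 for LDHA to LDHB. Voom and library sizes set to the reads in the table, both chosen after seeing the data, kept the sign of all 9 members. Count models on the recovered reads, planned as alternatives, were not run. ENO4 and FLT1 had as few as 25 reads in a library, and TEK as few as 7.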
